A study of Mus musculus with 12 samples.

Results

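The elements described here were 1578 distal transcriptional regulatory elements that were called in pachynema, were called again in diplonema, and were not called in leptonema/zygonema. They were found by merging the dREG peaks of the 3 substages wherever peaks overlapped or touched. This gave 65172 merged elements from 71107 leptonema/zygonema, 68352 pachynema and 38603 diplonema peaks. An element was kept when it lay on an autosome, held peaks of pachynema and of diplonema but none of leptonema/zygonema, and had its edge 1000 bp or more from every annotated transcription start site (TSS). The kept elements made up 4.19% of 37706 distal autosomal elements. The calls chose the members, so this count and the dREG scores below are descriptions and not tests, as the members were selected on the presence or absence of calls in these same lists.

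Nascent RNA was profiled by leChRO-seq, in which engaged RNA polymerase on isolated chromatin adds biotin-labelled nucleotides to its transcripts, and the labelled RNA is then purified and sequenced. The cells were wild-type (WT) mouse spermatocytes, separated by STAPUT sedimentation of testis cells into fractions rich in leptonema/zygonema, in pachynema or in diplonema, with 4 libraries for each of the 3 substages. The paper's methods give the source as adult mice on a C57Bl/6J or DBA/2J background, without saying which was used for these fractions, and describe the fractions as enriched and not fully pure, with possible spermatogenic cells of earlier or later stages. Its Results name elongated spermatids as most of the other cells. No treatment or allele distinguished the groups. The authors called dREG peaks on the 4 libraries of a substage merged, so each substage has 1 list, the values have no replicate spread, and no p-value was computed between substages. Read depth is not in the lists, and whether a missing leptonema/zygonema call is an absence of initiation or a signal below the caller's reach cannot be told apart.

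Active enhancers are transcribed by RNA polymerase II in both directions from closely spaced start sites, and dREG recognises this pattern in run-on data and gives each peak a score that rises with its strength. Distal elements switched on at a defined stage of a cell lineage are usually bound by a small set of sequence-specific transcription factors. In male meiosis the best known of these is A-MYB (Mybl1), a MYB-family activator that appears in pachytene spermatocytes and binds promoters of meiotic, spermatid and piRNA precursor genes as well as distal enhancers. RFX factors and CREM, which binds cAMP response elements, act in spermatocytes and spermatids.

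The promoter calls of marker genes were examined first as a check on the labelled cells. Of 32 autosomal genes for meiotic prophase proteins, such as synaptonemal complex and recombination factors, 30 had a promoter peak (a peak under 1000 bp from a TSS) in the leptonema/zygonema list, 30 in the pachynema list and 29 in the diplonema list. Of 18 markers of somatic testis cells, 4 had such a peak in the leptonema/zygonema list, 7 in that of pachynema and 5 in that of diplonema, and 11 had none in any substage. The promoters of Amh, Star, Insl3, Acta2, Myh11, Pecam1, Cd68 and Ptprc, which mark Sertoli, Leydig, peritubular, endothelial and immune cells, were called in no substage, as were those of Cyp17a1, Hsd3b1 and Csf1r. The promoters of Sox9, Gata4, Clu and Vim, all of them genes of Sertoli or other somatic cells, were called in all 3 substages, and those of Cyp11a1, a steroid synthesis enzyme, and Pdgfra in pachynema alone. Wt1, a Sertoli cell regulator, was the somatic marker whose promoter was called in pachynema and diplonema and not in leptonema/zygonema, and the part of somatic cells in the gained elements was not tested. Of 32 spermatid genes, 29 already had a promoter peak in the earliest list, and 28 had one in each of the later lists. Of 15 genes of spermatogonia and meiotic entry, 12 had a promoter peak in the leptonema/zygonema list, 13 in that of pachynema and 6 in that of diplonema. Of all 20807 autosomal protein-coding genes, 60.7% had a promoter peak in the leptonema/zygonema list, 61.2% in that of pachynema and 52.3% in that of diplonema, and 35.2% had none in any list. The part of cells of other stages in the gained elements was not tested.

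The sequences at the centres of the strongest elements are shown because some carry the MYB motif, which was more frequent in the members than in each other class of distal elements compared below. GGCAGTT was present in 5 of the 10 top-ranked elements, namely the first 3, the fifth and the seventh, and the sequence of the sixth, which held no match, is not shown. Elements were ranked by the lower of 2 percentiles, that of the best pachynema peak among all pachynema peaks and that of the best diplonema peak among all diplonema peaks. Each run reaches 100 bases to either side of the pachynema peak centre, on the plus strand of GRCm38, with matches to GGCNGTT on either strand in capitals. GGCNGTT is the form of the MYB motif searched here with any base at N, and on the minus strand it reads AACNGCC.
element 1: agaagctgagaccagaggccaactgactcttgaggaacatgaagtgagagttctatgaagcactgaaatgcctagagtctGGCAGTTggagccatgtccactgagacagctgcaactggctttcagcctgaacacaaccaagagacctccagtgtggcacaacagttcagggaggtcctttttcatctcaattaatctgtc
element 2: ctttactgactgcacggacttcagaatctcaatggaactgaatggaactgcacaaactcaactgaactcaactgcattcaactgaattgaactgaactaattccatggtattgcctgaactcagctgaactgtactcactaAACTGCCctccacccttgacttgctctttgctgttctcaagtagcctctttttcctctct
element 3: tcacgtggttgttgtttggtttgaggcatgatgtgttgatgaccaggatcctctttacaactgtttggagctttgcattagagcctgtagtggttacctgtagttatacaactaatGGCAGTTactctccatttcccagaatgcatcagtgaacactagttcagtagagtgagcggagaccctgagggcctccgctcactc
element 4: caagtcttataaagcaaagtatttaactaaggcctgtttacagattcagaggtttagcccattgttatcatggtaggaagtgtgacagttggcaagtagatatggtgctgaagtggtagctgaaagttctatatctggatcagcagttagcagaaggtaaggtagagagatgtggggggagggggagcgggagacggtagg
element 5: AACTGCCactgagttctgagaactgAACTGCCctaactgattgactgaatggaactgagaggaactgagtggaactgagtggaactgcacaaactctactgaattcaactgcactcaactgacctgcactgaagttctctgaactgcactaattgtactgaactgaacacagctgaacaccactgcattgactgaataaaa
element 7: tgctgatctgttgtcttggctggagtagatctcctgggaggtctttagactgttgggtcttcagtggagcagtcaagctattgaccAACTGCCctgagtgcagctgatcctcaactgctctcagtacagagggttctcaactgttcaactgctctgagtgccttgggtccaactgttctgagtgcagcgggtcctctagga
Element 1 spanned chr6:28070011-28070600, in an intron of Grm8, a metabotropic glutamate receptor. Element 2 spanned chr5:58285101-58285590, and the nearest protein-coding TSS was that of Pcdh7, a protocadherin, 562892 bp away. Element 3 spanned chr9:92212321-92213100, 19385 bp from the TSS of Plscr5, of the phospholipid scramblase family. The match lay 17 bp before the peak centre in element 1, 44 bp after it in element 2 and 19 bp after it in element 3. Element 5 spanned chr3:45616031-45616500 in intergenic sequence 233398 bp from the nearest protein-coding TSS, that of Pcdh10, another protocadherin, and held GGCAGTT 2 times, 97 and 72 bp before the centre. Element 7 spanned chr5:45162611-45163780, in an intron of a gene that is not protein-coding, and its match lay 11 bp before the centre. Element 4, chr1:145579391-145579880, an intergenic element whose nearest protein-coding gene was Rgs18, a regulator of G-protein signalling, held no match to GGCNGTT. Its printed window does hold CAGTTG, another MYB form that is described below and was not put in capitals.

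The scores of these leading elements were high in both substages. Element 1 had a dREG score of 1.292 in pachynema and 1.199 in diplonema, above 98.0% and 98.1% of the peaks of those lists. Element 2 had the highest pachynema score of all members, 1.323, with 1.111 in diplonema. The element with the highest diplonema score, 1.258, was the tenth, chr17:87441211-87441630, in an intron of Calm2, one of the genes for calmodulin, and its pachynema score was 1.131. The sixth, in an intron of Ldlrad4, a regulator of TGF-beta signalling, scored 1.191 in pachynema and 1.039 in diplonema. The eighth, chr2:58965041-58965600, lay in an intron of Ccdc148, a coiled-coil protein gene, with scores of 1.143 and 1.063. The ninth, chr4:51854361-51854980, scored 1.2 in pachynema and 1.018 in diplonema, and its nearest protein-coding TSS, 584263 bp away, was that of Smc2, a condensin subunit. Such elements were rare, since 11 of 1578 were above the 90th percentile in both lists.

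Most members were of modest strength. Their pachynema score had a median of 0.517, with 0.387 and 0.699 as the quartiles and a range from 0.247 to 1.323. Their diplonema score had a median of 0.427, with quartiles of 0.344 and 0.567 and a range from 0.242 to 1.258. The median member stood at percentile 43.4 of the pachynema list and at percentile 34.3 of the diplonema list, and 225 members (14.3%) were below the 25th percentile in both. Scores are not scaled between substages, so pachynema and diplonema scores are listed together without being compared. Only percentiles within a list are compared between substages. The pachynema score of elements called in pachynema only had a median of 0.365, and that of elements called in all 3 substages 0.926. In pachynema score the members therefore lay between these 2 classes and close to elements called in leptonema/zygonema and pachynema and not in diplonema, with a median of 0.489.

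**Figure D1:**
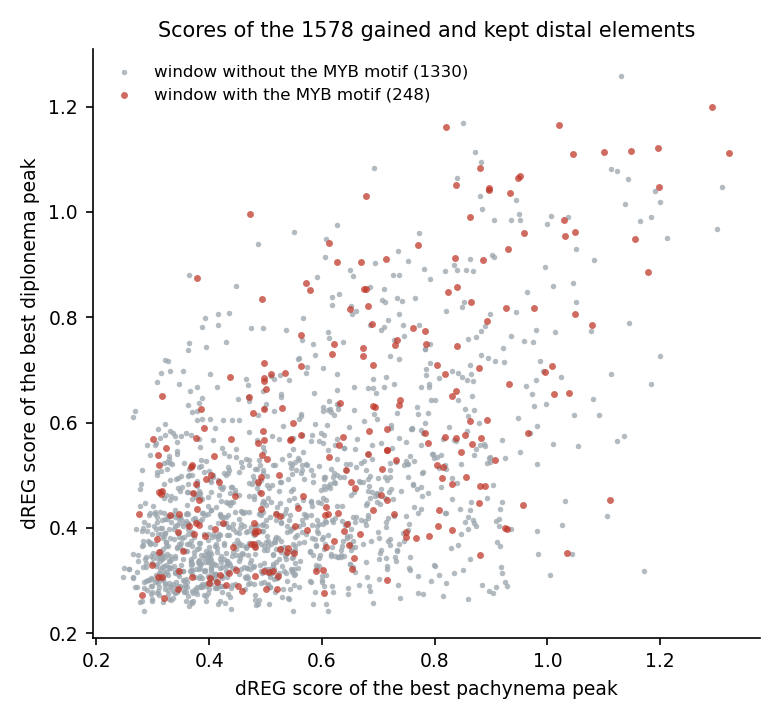
Each point is 1 of the 1578 elements, with the dREG score of its best pachynema peak on the horizontal axis and of its best diplonema peak on the vertical axis, both without unit. Red points hold GGCAGTT within 100 bp of the pachynema centre (248 elements) and grey points do not (1330). Red points are spread over the whole range and are densest, relative to grey, at the upper right.

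By the rule each element holds pachynema and diplonema peaks that overlap or touch, so the nearness of these calls is a description and not a test. In 1209 elements (76.6%) there was 1 pachynema peak and 1 diplonema peak, while 276 held more than 1 pachynema peak and 213 more than 1 diplonema peak. The centres of the best peaks of the 2 substages lay 55 bp apart at the median, and within 50 bp of each other in 789 elements. The median width was 610 bp, with a range from 150 to 2740 bp. Elements called in pachynema only had a median width of 360 bp, those called in leptonema/zygonema and pachynema 590 bp, and those called in all 3 substages 870 bp. Merging can only widen an element that holds more peaks, so width follows in part from the number of lists.

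A smaller share of distal elements gained in pachynema was called in diplonema than of those called in both earlier substages. The diplonema list was shorter, with 38603 peaks against 68352 in pachynema. Of all 24751 distal autosomal elements with a pachynema peak, 7305 were called in all 3 substages and 1578 were the members. These calls also define the members, so the shares are a description and not a test. Of 8001 distal autosomal elements called in pachynema and not in leptonema/zygonema, 1578 (19.7%, Wilson 95% interval 18.9 to 20.6%) were kept in diplonema. Of 16750 distal elements called in both earlier substages, 43.6% were kept. Close to promoters, 944 of 25410 proximal elements (3.72%) were gained in pachynema and kept, which was 24.4% (23.1 to 25.8%) of those gained, against 74.3% of proximal elements called in both earlier substages. Among distal elements, the median pachynema score was 0.365 for those called in pachynema only and 0.517 for the members. For those called in both earlier substages it was 0.489 without a diplonema call and 0.926 with one. The part of the score in the lower share kept among gained elements was not tested. All intervals given here cover counting only, and neighbouring elements are not independent.

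The rule left out elements that touched a leptonema/zygonema peak, so distances to such peaks are a description and not a test. A wider element touches a nearby peak more readily. The members had a median width of 610 bp, and elements called in pachynema only 360 bp. The part of width in the distances below was not tested. The nearest leptonema/zygonema peak was 14610 bp away at the median for the members and 9650 bp for elements called in pachynema only. A leptonema/zygonema peak lay within 1000 bp of 219 members (13.9%, 12.3 to 15.7%) and of 24.6% (23.5 to 25.7%) of the pachynema-only elements. For 280 members (17.7%) it was more than 50000 bp away. Within 500 bp there was one for 10.5% of the members.

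With respect to genes the members lay in introns about as often as other distal elements did. The midpoint was intergenic in 835 (52.9%, 50.4 to 55.4%), intronic in 643 (40.7%, 38.3 to 43.2%) and exonic in 100 (6.34%, 5.24 to 7.65%). Introns held 41.9% of elements called in pachynema only, 41.6% of those called in leptonema/zygonema and pachynema and 40.1% of those called in all 3 substages, each inside the interval of the members. Exons held 6.99%, 5.57% and 4.85% of these classes, the last of them below the interval of the members. The nearest TSS was 12543 bp away at the median, with quartiles of 5103 and 30525 bp and a maximum of 318726 bp. The median was 12440 bp for elements called in pachynema only, 14220 bp for those called in leptonema/zygonema and pachynema and 14196 bp for those called in all 3 substages. The 5 members closest to the distance limit were 1000, 1004, 1027, 1030 and 1045 bp from a TSS, with pachynema scores from 0.447 to 0.677. The 5 elements just under it, at 982 to 999 bp, scored from 0.411 to 0.751. A RefSeq TSS that GENCODE M21 does not have lay under 1000 bp from 122 members (7.73%). The median GC content was 49.8% in windows of 100 bp to either side of the centre. It was 48.8% for elements called in pachynema only and 48.3% for those called in all 3 substages. For those called in leptonema/zygonema and pachynema it was 47.3%. The median number of CpG dinucleotides was 3 for the members and for pachynema-only elements, and 2 for the other classes.

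The MYB motif was more frequent in the members than in the other classes. The paper had searched dREG peaks of these same libraries that rose from leptonema/zygonema to pachynema, and MYB-family motifs scored highest. The motif was chosen here with that result known, so its excess is a description and not an independent finding. GGCAGTT, on either strand, was present within 100 bp of the pachynema centre in 248 of 1578 elements (15.7%, 14.0 to 17.6%). It was present in 5.95% (5.39 to 6.55%) of elements called in pachynema only, in 2.57% (2.27 to 2.91%) of those called in leptonema/zygonema and pachynema, and in 5.11% (4.62 to 5.63%) of those called in all 3 substages. The share in the members was therefore 2.64, 6.11 and 3.08 times that of the 3 classes, and the interval of the members overlapped none of the other 3. Among all 24751 distal autosomal elements with a pachynema peak it was 5.03%. In windows of the same length 2000 bp to either side of the members it fell to 1.74% (1.34 to 2.26%). The ratio to elements called in all 3 substages was 2.93 with that class weighted to the GC content of the members, and 3.46 with it weighted to their pachynema scores. Against elements called in pachynema only the weighted ratios were 2.62 and 2.10.

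The excess differed with the base at the open position N of the core. GGCAGTT was 3.08 times as frequent in the members as in elements called in all 3 substages, GGCCGTT was present in 1.33% against 0.616%, and GGCGGTT in 1.84% against 0.780%. GGCTGTT was present in 4.37% (3.47 to 5.50%) against 6.13% (5.61 to 6.71%), and so was lower in the members. The 6 letters CAGTTG, a second MYB form that overlaps GGCAGTT by 5 bases, were in 27.3% of the members against 14.0% of elements called in all 3 substages. Either GGCNGTT or CAGTTG was present in 602 members (38.1%, 35.8 to 40.6%) and in 22.7% of elements called in all 3 substages, so most members held neither of these letters in the window.

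GGCAGTT was gathered at the peak centre. Of 706 matches within 500 bp of the centres of the members, 318 (45.0%) were within 100 bp, and these were 6 times as many as the 53 found from 400 to 500 bp. The same ratio was 1.79 for elements called in pachynema only, 1.10 for those called in leptonema/zygonema and pachynema and 2.43 for those called in all 3 substages. When the diplonema centre was used in place of the pachynema centre, 16.0% of the members held the motif, against 6.0% of elements called in diplonema only and 5.37% of those called in all 3 substages. Elements called in leptonema/zygonema only held it in 2.46% at their own centres.

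**Figure D2:**
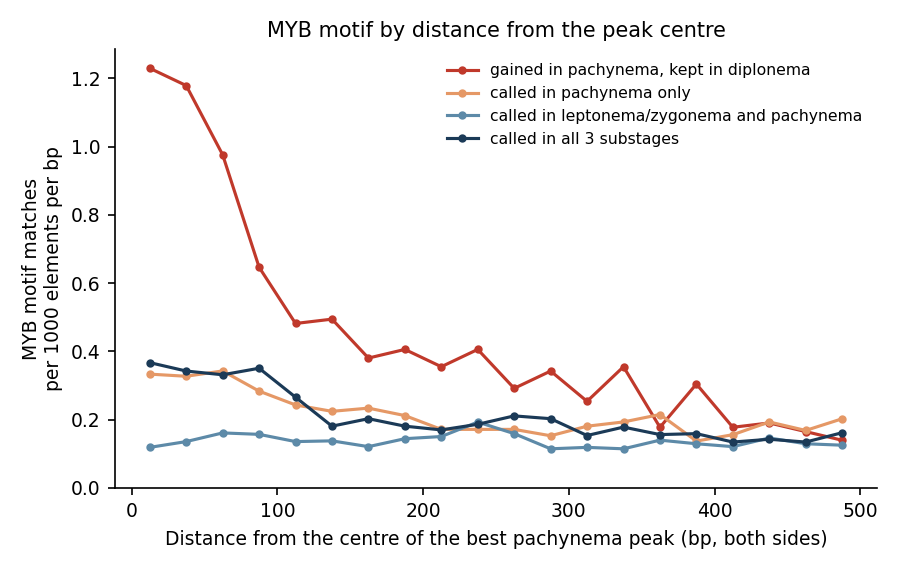
Matches to GGCAGTT per 1000 elements per bp (vertical axis) by distance from the centre of the best pachynema peak in bins of 25 bp (horizontal axis, both sides summed), for the members and 3 other classes of distal autosomal elements. The line of the members starts at 1.23 and falls to the level of the other classes by 400 to 500 bp.

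Within the members, the motif was more frequent in elements with higher scores. It was present in 9.17% (6.81 to 12.3%) of members with a pachynema score under 0.4, in 13.3% from 0.4 to 0.6, in 18.1% from 0.6 to 0.8 and in 29.1% (23.8 to 35.1%) at 0.8 or more. The same bands of the diplonema score gave 9.42%, 15.9%, 22.3% and 36.4%. In elements called in pachynema only the share also rose over the first 3 bands, from 4.55% to 8.04% and 10.2%, and was 7.25% (3.13 to 15.9%) in the 69 elements at 0.8 or more. In elements called in all 3 substages it was 2.69% under 0.4 and 5.26% at 0.8 or more, and in those called in leptonema/zygonema and pachynema it was 2.56% and 2.25%. Of the 100 members ranked first, 36 held it, and of the first 200, 65. Members with the motif had a median pachynema score of 0.628 and a median diplonema score of 0.536, and those without it 0.502 and 0.415.

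**Figure D3:**
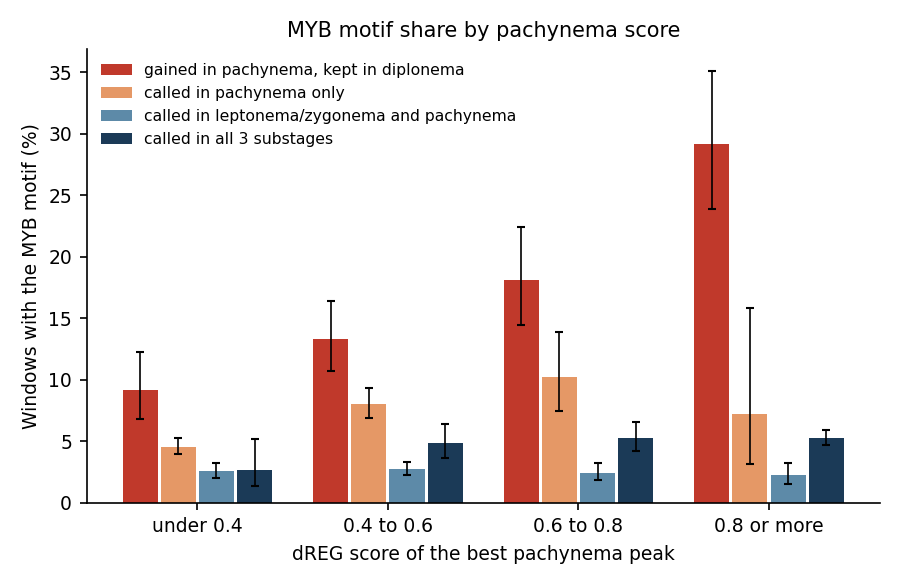
Share of windows (100 bp to either side of the centre) with GGCAGTT (vertical axis, percent) in 4 bands of the pachynema dREG score (horizontal axis) for the members and 3 other classes. Bars are shares and lines are Wilson 95% intervals. The bars of the members rise from 9.17% to 29.1%, and the highest bar of another class is at 10.2%.

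The motif share also differed with location. It was 12.8% (9.79 to 16.5%) in members 1000 to 5000 bp from a TSS, 14.3% from 5000 to 20000 bp, 16.4% from 20000 to 50000 bp and 23.7% (18.6 to 29.8%) at 50000 bp or more. Elements called in pachynema only were also highest at 50000 bp or more, with 9.08% (7.35 to 11.2%) against 4.95 to 5.83% nearer to a TSS. Intergenic members held it in 18.6% (16.1 to 21.3%) and intronic members in 12.8% (10.4 to 15.6%). Among the 219 members with a leptonema/zygonema peak within 1000 bp it was 5.02%, and without such a peak it was 17.4%. The first of these was close to the shares in elements called in pachynema only (5.95%) and in all 3 substages (5.11%). On each of the 19 autosomes the share in the members was above that in each of the 3 classes, with a range from 10.7% to 21.8%. The highest share of any other class on any autosome was 8.63%. Proximal elements gained in pachynema and kept in diplonema, which were not among the members, held it in 8.16% (6.58 to 10.1%), against 3.17% of proximal elements called in all 3 substages.

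**Figure D4:**
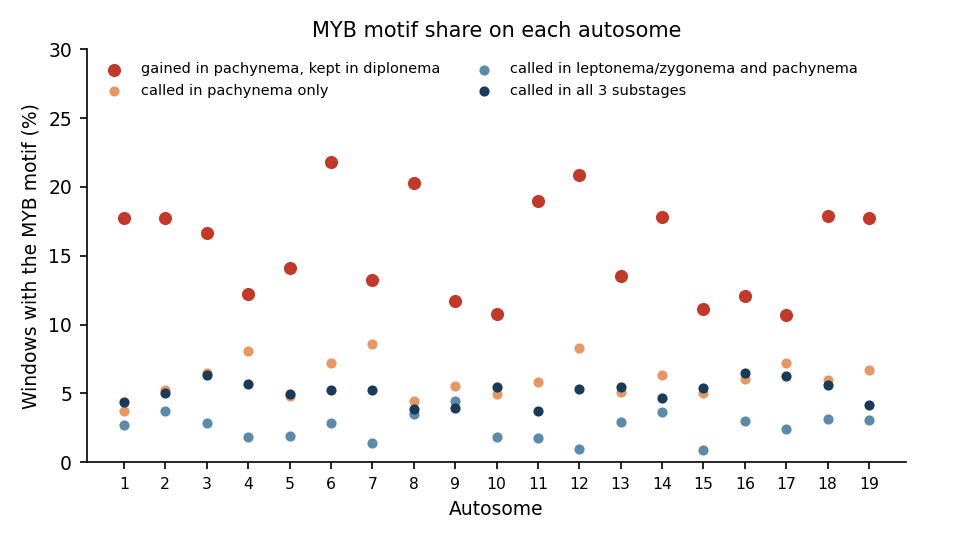
Share of windows (100 bp to either side of the centre) with GGCAGTT (vertical axis, percent) on each of the 19 autosomes (horizontal axis) in the members and 3 other classes of distal elements. Every red point lies above the other points of its autosome.

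A subset of the members that held GGCAGTT were copies of a repeated sequence. Windows were grouped when they shared a word of 20 bases on either strand, leaving out words of low complexity, a grouping chosen after the data were seen. The members so linked numbered 153 (9.70%) in 24 groups. The largest group had 61 members on 17 chromosomes, and in 58 of them 50% or more of the window was soft-masked as repeat in the genome sequence. GGCAGTT was present in 34 of the 61 (55.7%, 43.3 to 67.5%), and 2 or more times in 27. Windows with a word of this group made up 0.701% of elements called in pachynema only, 1.68% of those called in leptonema/zygonema and pachynema and 2.14% of those called in all 3 substages. They made up 3.87% of the members, from whose windows the words were taken, so the last share is larger by construction. Some copies are shown on the strand on which the motif reads GGCAGTT, with that motif in capitals.
copy at element 25: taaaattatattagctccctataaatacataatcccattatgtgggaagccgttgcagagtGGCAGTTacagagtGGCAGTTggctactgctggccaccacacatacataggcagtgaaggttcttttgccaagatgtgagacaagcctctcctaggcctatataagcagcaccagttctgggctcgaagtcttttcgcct
copy at element 51: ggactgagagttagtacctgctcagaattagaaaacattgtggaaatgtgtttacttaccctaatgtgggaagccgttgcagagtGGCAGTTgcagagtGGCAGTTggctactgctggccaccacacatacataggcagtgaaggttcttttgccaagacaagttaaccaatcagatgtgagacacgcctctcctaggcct
copy at element 83: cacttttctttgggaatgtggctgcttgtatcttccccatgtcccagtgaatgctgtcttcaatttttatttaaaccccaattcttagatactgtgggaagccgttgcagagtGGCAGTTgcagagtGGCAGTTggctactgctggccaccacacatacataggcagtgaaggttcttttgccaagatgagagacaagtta
The runs lie at chr14:38717321-38717521 on the minus strand, in an intron of Nrg3, a neuregulin, at chr13:67851181-67851381 on the plus strand, intergenic, and at chr1:21904431-21904631 on the plus strand, in an intron of Kcnq5, a potassium channel. Each held the motif 2 times, separated by a few bases, following the same stretch with GCCGTT. Their pachynema scores were 1.03, 0.897 and 0.836 and their diplonema scores 0.984, 1.045 and 0.913. The family of the repeat was not looked up. The other 1517 members held GGCAGTT in 14.1% (12.4 to 15.9%).

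Other transcription factor motifs divided the classes differently. The RFX half-site GTTGCCA was present in 3.17% (2.41 to 4.15%) of the members, close to the 3.44% of elements called in pachynema only. It was present in 7.02% of elements called in leptonema/zygonema and pachynema and in 9.43% (8.78 to 10.1%) of those called in all 3 substages. The palindromic cAMP response element TGACGTCA, bound by CREM and related factors, was in 0.824% of the members and in 1.93% of elements called in all 3 substages, with 0.389% in pachynema-only elements. The nuclear receptor half-site AGGTCA was in 13.8% (12.2 to 15.6%) of the members and in 17.6% (16.7 to 18.5%) of elements called in all 3 substages. It was in 15.5% (14.7 to 16.4%) of pachynema-only elements, whose interval overlapped that of the members. Members and elements called in all 3 substages had overlapping intervals for the E-box CACGTG (5.64% and 4.31%), the GC box GGGCGG (10.6% and 9.14%), the ETS motif CCGGAAG (4.31% and 3.68%), the CCAAT box bound by NFY (29.0% and 27.3%), the AP-1 motif TGANTCA (6.97% and 7.91%) and the TATA box TATAAA (9.19% and 10.6%). For the E-box, the GC box and the ETS motif the members lay above elements called in leptonema/zygonema and pachynema (3.49%, 7.26% and 1.94%), without overlap of intervals. For the GC box they also lay above pachynema-only elements (8.13%). The intervals for the CCAAT box, the AP-1 motif and the TATA box overlapped in these classes too. The NRF1 and CTCF motifs were rare, at 0.570% and 0.317% of the members. All motifs were searched on both strands, and a match describes letters and not bound protein.

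**Figure D5:**
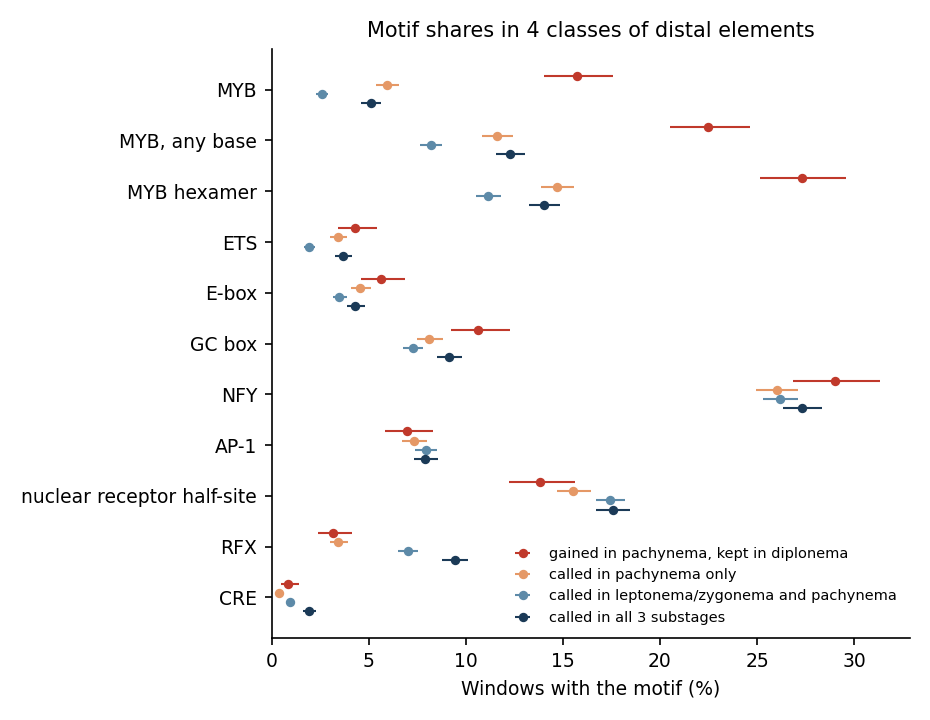
Share of windows (100 bp to either side of the centre) with each motif (horizontal axis, percent) in the members and 3 other classes of distal autosomal elements, with points for shares and lines for Wilson 95% intervals. The 3 MYB forms lie to the right in the members, and RFX and CRE lie to the right in elements called in all 3 substages.

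Hexamers were ranked without regard to known motifs. Of 1885 hexamers present in at least 2% of the members, the highest ratio of members to elements called in all 3 substages was that of GCCGTT, at 2.49. AGCCGT followed at 2.14, GCAGTT at 2.10, TCGTTC at 1.99 and TAACGG at 1.97. GCCGTT and AGCCGT lie in the repeated sequence shown above and were each in 26 of its 61 windows. With those windows left out of the members only, the ratio of GCCGTT was 1.99, that of AGCCGT 1.65 and that of GCAGTT 1.98. Elements called in all 3 substages kept their windows with a word of that sequence (2.14%). These ratios are therefore not like for like, and no conclusion is drawn from their fall. The lowest ratio was that of GTCATA, at 0.317, with 5.01% of the members and 15.8% of elements called in all 3 substages.

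The members were scattered through the genome. Joined across gaps of up to 12.5 kb, they formed 1404 single elements, 84 stretches of 2 and 2 stretches of 3, so that 89.0% stood alone. One stretch of 3 lay in no protein-coding gene, 62571 bp from the TSS of Mc2r, the corticotropin receptor, with pachynema scores from 0.326 to 0.587 and no GGCAGTT. The other stretch of 3 spanned chr4:151736821-151743940 inside Camta1, a calmodulin-binding transcription activator, with pachynema scores from 0.366 to 0.98 and no GGCAGTT. The stretches of 2 with the shortest spans lay in Lnpep, an aminopeptidase, and outside protein-coding genes near Cfap126, a cilium protein, and Cnot10, a subunit of the CCR4-NOT deadenylase complex. A share standing alone cannot be set against the other classes, which are larger.

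Protein-coding genes with a member in the gene body numbered 576 of 20807 on the autosomes, and 519 of them held 1. The gene model with most, Gm20388, spans 4434882 bp and other genes within it, so its 8 members are not assigned to it in any useful sense. Cdc14a, a phosphatase that reverses cyclin-dependent kinase phosphorylation, held 4, with pachynema scores from 0.313 to 0.643 and diplonema scores from 0.322 to 0.521. Cdc14a also held 5 pachynema-only elements and no element called in all 3 substages, and its own promoter was called in every substage. Camta1 held 4 as well, with 6 elements called in all 3 substages beside them. There were 3 members each in Chd2, a chromatin remodeller, in 1700025G04Rik and in the long annotated model of Fgfr2, a growth factor receptor. Of the short genes, Hand1, a basic helix-loop-helix regulator, and Tcte3, an axonemal dynein light chain, held 2 each, as did AI464131 and Scn2b, a sodium channel subunit. The promoters of these 4 were called in no substage, and the members in Scn2b scored 0.767 and 0.77 in pachynema, 1 of them with GGCAGTT.

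The gene lists examined were those of meiosis, piRNA production, spermatogenesis and somatic testis cells. A member lay in the body or within 50000 bp of a TSS of 15 of 149 listed genes (10.1%), against 8.94% of all autosomal protein-coding genes, which is near the background. Among meiotic prophase genes there were 4 of 32. Rnf212, a crossover factor, had a member in an intron 7286 bp from its TSS with GGCAGTT and scores of 0.346 in pachynema and 0.318 in diplonema. Smc1b, a meiotic cohesin subunit, had one 12334 bp from its TSS, Trip13, the ATPase that remodels HORMA proteins, 32427 bp, and Rec114, needed for double-strand break formation, 44197 bp. Of these 4, Rec114 had the highest member scores, 0.627 and 0.569.

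Regulators of the pachytene and spermatid programmes had members near 4 of 17 genes. Over all autosomal protein-coding genes the share was 8.94%. The single lists are too small to be set against that share, and no difference between lists is drawn from these counts. Rfx2, which drives ciliary and spermatid genes, had 2, the nearer 28414 bp from its TSS with scores of 0.475 and 0.779, and Rfx3 had one at 15985 bp. Cdyl, a chromodomain protein, held one in an intron, and Fhl5, a partner of CREM, had one with GGCAGTT at 44125 bp. Of 20 piRNA pathway genes, Piwil1, which encodes MIWI and binds pachytene piRNAs, had 2, the nearer in an intron 14584 bp from its TSS, and Piwil4 had 1 at 40470 bp. Among 15 meiotic division genes, Plk1, a mitotic and meiotic kinase, had a member at 36980 bp with a pachynema score of 1.112, the highest among the nearest members of the listed genes, and Bub1b, a spindle checkpoint kinase, one at 43241 bp. None of 32 spermatid genes had a member, while 8 had an element called in all 3 substages, as did 45 of the 149 listed genes and 31.3% of all autosomal protein-coding genes. Spermatogonial genes had 2 of 15, Zbtb16 and Ccnd2, and somatic genes 1 of 18, Acta2. The promoters of 12 of these 15 genes were called in all 3 substages. That of Ccnd2 was called in leptonema/zygonema and pachynema, and those of Piwil4 and Acta2 in none.

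Promoters of the genes nearest to members were seldom gained with them. The members had 1353 different nearest protein-coding genes, and 57 of these (4.21%, 3.27 to 5.42%) had a promoter called in pachynema and not in leptonema/zygonema. The share was 5.06% for genes nearest to pachynema-only elements, 4.83% for leptonema/zygonema and pachynema, 5.24% for all 3 substages and 3.58% for all autosomal protein-coding genes, and all 4 of these lie inside the interval of the members. A promoter called in all 3 substages was found for 787 (58.2%, 55.5 to 60.8%), against 50.2% of all genes and 56.9 to 59.8% for the other 3 classes. In 25 genes (1.85%, 1.25 to 2.71%) the promoter was gained in pachynema and kept in diplonema, as the element was, which is near the 1.46% of all autosomal protein-coding genes and the 1.85 to 2.16% of the other 3 classes. They included Galnt16, a mucin-type glycosyltransferase, whose element 4971 bp away scored 0.999 in pachynema and 0.977 in diplonema, and Prlr, the prolactin receptor, whose element 12425 bp away scored 0.897 and 0.28. Atxn1 and Ecel1 had members 1027 and 1045 bp from a TSS, near the distance limit. Nearest genes were taken by position, and contact between element and promoter was not measured.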

How the data were processed

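Before deposit, the authors collapsed PCR duplicates by molecular identifier (PRINSEQ lite), clipped adapters (cutadapt) and aligned reads with BWA against mm10 plus a ribosomal repeat sequence. dREG then called peaks, at its defaults, once per substage on all 4 libraries joined. The paper's methods say paired-end and the labels single-end sequencing. The deposited lists give each peak a position, a centre, a dREG score without fixed range and a p-value, which the paper does not say is adjusted. Both are the authors' values, and they hold no depth.

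Peaks that overlapped or touched were merged, and distances were taken from element edges to GENCODE M21 TSSs. Motifs were searched in GRCm38 on both strands, 100 bp either side of the best peak's centre. Members, lists, motifs and tests were chosen with earlier results of these data known. Named were the 10 genes with most elements in their bodies, those at the 10 top-ranked elements, listed genes within 50000 bp and those at the 5 stretches with most elements, ties going to the shortest. Chosen after their values were seen were Galnt16, Prlr, Atxn1, Ecel1, Nrg3 and Kcnq5. Shares carry Wilson 95% intervals. Merging, distances, motif scan and intervals were tested on simulated data. Python 3.11.15 was used with matplotlib 3.10.9, scipy 1.17.1, pandas 2.3.3 and numpy 2.4.6, and bedtools 2.31.1 checked the merging. Alternatives changed merging, score, p-value, list length, TSS set and distance, overlap, motif form, window and centre, and weighting. The study's ATAC-seq and RNA-seq data were not analysed here.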

Additional observations from a re-analysis of the deposited data

How the results depend on the processing

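Of 75 recomputed values under alternative settings, 56 stayed within the main interval, or within 1.5 times the main count, and 19 moved beyond it. With peaks limited to a dREG score of 0.5 or more in all lists, including that of leptonema/zygonema, 773 elements met the rule, some of which have a lower-scoring leptonema/zygonema peak, 35.3% were intronic, 22.4% held GGCAGTT and the ratio to elements called in all 3 substages was 4.42. With that limit in pachynema and diplonema only, the values were 430, 37.7%, 25.6% and 4.12. Lists of equal length gave an intronic share of 35.7% and a ratio of 3.79, and a TSS distance of 5000 bp or more gave an intronic share of 37.3%. With GGCNGTT the motif share was 22.5% and the ratio 1.83, and with CAGTTG 27.3% and 1.95. Windows of 50 bp to either side gave 9.44% and 3.59, and windows of 200 bp 21.4% and 2.57, the share following from the length searched. The promoter share was within the main interval under all 13 of its alternatives. Chosen after seeing the data were windows under 50% soft-masked, with a motif share of 14.1%, and a distance of 1000 bp or more from RefSeq TSSs too, with 15.9%. No paired analysis was possible because the columns carry no replicate, the 4 libraries of a substage having been joined before calling, which also means that none could be left out. Promoter calls were kept from the full lists throughout. No read counts are given per peak, and the paper's ranges and scaling factors were not used as depths here, so how many calls more reads would add to the leptonema/zygonema or diplonema list was not tested.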

Other observations

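The X chromosome was outside the rule and is described here only. In pachynema the X is silenced in the sex body, as is known from earlier work. Of 1001 distal X elements, 96 (9.59%, Wilson 95% interval 7.92 to 11.6%) were called in pachynema and diplonema and not in leptonema/zygonema, against 4.19% of distal autosomal elements. Of 232 distal X elements gained in pachynema, 41.4% (35.2 to 47.8%) were kept in diplonema, against 19.7% on the autosomes. Near X-linked TSSs the share of gained and kept elements was 2.94%. GGCAGTT was present in 38 of the 96 (39.6%, 30.4 to 49.6%), in 10.3% of X elements called in pachynema only, in 1.55% of those called in leptonema/zygonema and pachynema and in 7.74% of those called in all 3 substages. Of the 96 windows, 17 held a word of the repeated sequence found on the autosomes, and without them the share was 28 of 79 (35.4%, 25.8 to 46.4%). The median dREG score of the 96 was 0.644 in pachynema and 0.639 in diplonema. The number of X elements is small, and the lists are the same 3 merged lists.

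The hexamers TGACAT and ACATCA, which were among the 10 with the lowest ratio of gained and kept autosomal elements to elements called in all 3 substages, overlap in the 8 letters TGACATCA, a word assembled after the hexamer values were seen. It was present in 23 of 1578 of them (1.46%, 0.973 to 2.18%), in 1.96% of elements called in pachynema only, in 7.99% of those called in leptonema/zygonema and pachynema and in 10.1% (9.46 to 10.8%) of those called in all 3 substages. Elements called in leptonema/zygonema only held it in 5.01% at their own centres, and windows 2000 bp from the centres of all distal elements with a pachynema peak in 1.12%.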
